A study of Homo sapiens with 19 samples.

Results

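Chromosome 19 is the densest human chromosome in genes, and it carries most of the large clusters of KRAB zinc finger genes. The intervals described here are all those placed on chromosome 19 in 10 deposited lists of ChIP-seq enrichment, 4511 of the 203381 intervals in all. They came from 2 RB lists and 8 V5 lists, and were taken by chromosome name alone, with no measured value in the rule. Earlier results of these data were known when the chromosome and lists were chosen. RB was mapped in VCaP cells (975 intervals on chromosome 19, from 1 library) and in C4-2 cells (434 intervals, from 2 libraries), both untreated prostate cancer lines kept in medium with charcoal-stripped serum. V5 was mapped in C4-2 lines carrying a tetracycline-controlled E2F1, either the K185R mutant or the wild type (WT), with 2 libraries for each of 4 treatments. The treatments were doxycycline (0.25 ug/ml for 3 days) with GSK2879552 (50 uM for 24 hours), GSK2879552 alone, doxycycline alone and no treatment. GSK2879552 inhibits the lysine demethylase LSD1. In that order, chromosome 19 held 67, 155, 425 and 918 V5 intervals in K185R cells, and 90, 66, 1113 and 268 in WT cells.

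RB, a pocket protein, holds E2F factors at their target promoters and keeps these repressed. Many of the targets are DNA replication and cell cycle genes. E2F1 can activate the same promoters when RB is absent or released. KRAB zinc finger genes arose by tandem duplication, encode repressors of transposable elements, and lie in clusters rich in repeats and repressive chromatin. The cluster of band 19p12, beside the centromere, is one of the largest. The question put to chromosome 19 was how RB and V5 intervals are spread along it, how far RB is shared between the lines, and how often V5 meets RB in each protein and treatment.

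A group has 1 list, so no value of a single list has a replicate error, and nothing says that the libraries came from separate cultures. The names of the V5 lists carry siNTC and siRB where the labels give no doxycycline and doxycycline, so doxycycline is given as labelled. Whether the cells made tagged E2F1 without doxycycline is not given in the sources used here, and the intervals are called V5 intervals for that reason. The depth solved from the deposited values was 2.98 reads per kilobase in the VCaP RB list, 8.21 in the C4-2 RB list and 0.716 to 1.79 in the V5 lists. The median chromosome 19 interval had 13 reads at its summit in both RB lists and 5 to 7 in the V5 lists. Summits with 5 or fewer reads made up 25.8% to 58.4% of a V5 list. Positions are in hg19. No annotation of that build was used, so intervals are given by position and not by gene.

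RB intervals were denser on chromosome 19 than on any other of 24 chromosomes in both lines, whereas V5 intervals in the full lists were about as dense there as elsewhere. VCaP had 16.5 RB intervals per megabase on chromosome 19 and 5.29 on the other chromosomes, a ratio of 3.12 (95% interval 2.92 to 3.33, counting error only). C4-2 had 7.34 per megabase on chromosome 19 and 2.87 elsewhere, a ratio of 2.56 (2.32 to 2.82). Chromosome 17 came next, with 11.96 per megabase in VCaP and 6.21 in C4-2. For V5 the same ratio was 1.003, 0.817, 0.996 and 0.861 in K185R cells with doxycycline and GSK2879552, GSK2879552, doxycycline and no treatment. It was 1.22, 1.24, 0.908 and 0.928 in WT cells in the same order. The median of the 8 V5 ratios was 0.962, and chromosome 19 ranked between 5 and 21 of 24. WT cells with GSK2879552, with or without doxycycline, had the highest V5 ratios, and no V5 list came near either RB list. Those 2 ratios rest on 90 intervals with both agents and 66 with GSK2879552 alone. The window from 27 to 28 Mb, described below, held 12 and 8 of them. No counting error is given for a single V5 ratio. Among intervals with −log10 q of at least 5 (the authors' q-value, a stricter limit than that of the lists) the median V5 ratio was 1.198. The ratio was then 1.54 in K185R cells with both agents, and 1.58 and 1.50 in WT cells with both agents and with GSK2879552. These ratios rest on 17, 33 and 27 intervals. Outside the zinc finger windows defined below, leaving out the window from 27 to 28 Mb lowered the counts from 15, 29 and 24 to 6, 18 and 17. The ratios without that window were not computed, so a higher density along chromosome 19 is not claimed.

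**Figure D1:**
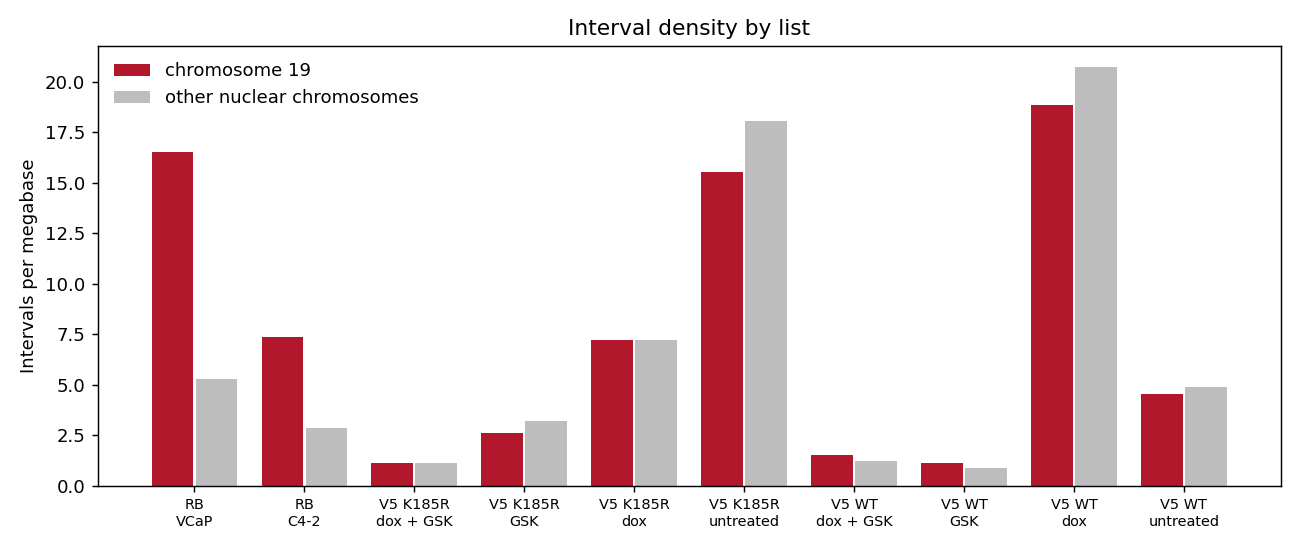
Intervals per megabase in each of the 10 lists, on chromosome 19 (red) and on the other nuclear chromosomes together (grey). The RB bars for chromosome 19 stand at 16.5 in VCaP and 7.34 in C4-2, well above their grey bars, while the V5 bars are close to theirs.

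Along the chromosome, RB intervals were more clustered than V5 intervals of lists with a like count per window. The chromosome was cut into 1-Mb windows, of which 57 lay outside the stretch around the centromere that held no interval in any list (chr19:24629208-27731863). The variance of the window counts divided by their mean, which is about 1 for randomly scattered intervals, was 5.83 for VCaP RB and 3.59 for C4-2 RB, without the window next to the centromere. For V5 it lay between 0.849 and 1.74. Where intervals cluster, this measure also rises with the count per window. The median count was 17 in VCaP RB, 7 in C4-2 RB and 1 to 19 in the V5 lists, so the short V5 lists are not comparable. Those of like count had 0.849 (K185R with doxycycline, median 7), 0.932 (K185R without treatment, median 16) and 1.74 (WT with doxycycline, median 19). Median distance to the nearest interval of the same list was 18.6 kb in VCaP and 23.5 kb in C4-2. The VCaP count was above the C4-2 count in 51 of 57 windows, below it in 4 and equal in 2. The window from 18 to 19 Mb held the most VCaP RB intervals, 39, followed by the windows that start at 49 Mb (38), 58 Mb (37), 50 Mb (35) and 1 Mb (31). C4-2 RB was densest from 27 to 28 Mb, with 27 intervals, followed by the windows that start at 1 Mb (20), and at 7, 10 and 53 Mb (18 each). Across 56 windows, the VCaP and C4-2 counts had a Spearman correlation of 0.62, as a description only, since windows of one chromosome share gene and repeat content. Between C4-2 RB and V5 counts it was 0.37 in WT cells with both agents and 0.38 with GSK2879552. In the remaining V5 lists it was -0.19 to 0.05. VCaP had 14.8 intervals per megabase on the short arm and 19.4 on the long arm, and C4-2 had 8.61 and 7.07.

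**Figure D2:**
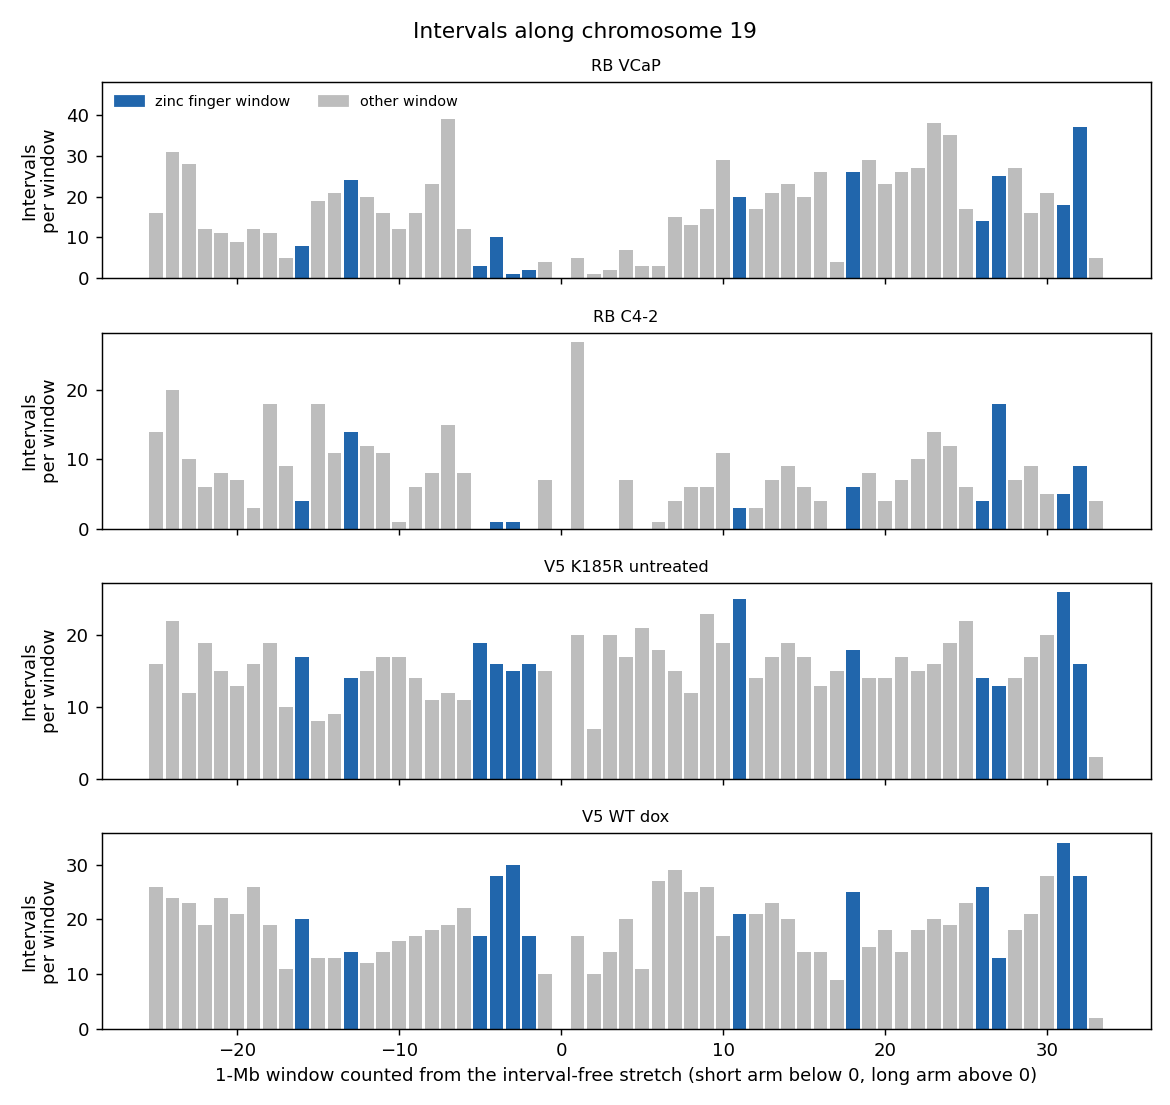
Number of intervals in each 1-Mb window of chromosome 19 for both RB lists and the longest V5 list of each protein, with windows counted from the interval-free stretch around the centromere and zinc finger windows in blue. RB falls to a few intervals per window on either side of that stretch apart from the tall C4-2 bar of 27 at the window beside it, while the V5 counts fall less there (7 in untreated K185R and 10 in WT with doxycycline in the window from 28 to 29 Mb).

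That window, from 27 to 28 Mb, was unlike the rest of the chromosome. It held 5 RB intervals in VCaP and 27 in C4-2, all 27 between chr19:27731941 and 27912269, a stretch of 180.3 kb. V5 intervals there numbered 11, 15, 16 and 20 in K185R cells with doxycycline and GSK2879552, GSK2879552, doxycycline and no treatment, and 12, 8, 17 and 14 in WT cells. They made up 1.53% to 16.4% of the chromosome 19 intervals of a V5 list. Local background, the reads expected around an interval, was also high: it was at least 10 times the lowest shared level of the list (its floor) in 5 of 5 VCaP RB intervals and 9 of 27 C4-2 RB intervals. The same held for 6 to 9 V5 intervals of each V5 list. Of 2547 merged V5 regions on the chromosome, 2202 (86.5%) occurred in a single V5 list. The matching share over all chromosomes is not given, so this is not claimed as a trait of chromosome 19. The 9 regions found in all 8 V5 lists included 8 in this window, all 8 at a C4-2 RB interval. Part of the counts below rests on this window, so they are given with and without it.

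Zinc finger windows were set against the rest of the chromosome. Without an hg19 annotation, the clusters were approximated by 12 windows of 1 Mb chosen from general knowledge, those starting at 9, 12, 20 to 23 (band 19p12), 37, 44, 52, 53, 57 and 58 Mb. Earlier results of these data were known at the choice of these windows. VCaP had 188 RB intervals in them, 15.7 per megabase, and 17.9 per megabase elsewhere, a ratio of 0.876. C4-2 had 65, 5.42 per megabase, and 8.38 elsewhere, a ratio of 0.646. Among the zinc finger windows, the low density of both lines lay mostly in band 19p12. Its 4 windows held 16 VCaP intervals (4.0 per megabase, a ratio of 0.224) and 2 C4-2 intervals (0.500 per megabase, a ratio of 0.0596). In the other zinc finger windows the ratio was 1.202 in VCaP and 0.939 in C4-2. Low counts were not particular to zinc finger windows. On the other side of the centromere, the windows from 28 to 33 Mb, counted as elsewhere, held 1, 2, 7, 3 and 3 VCaP intervals. They held 0, 0, 7, 0 and 1 C4-2 intervals. Whether nearness to the centromere or the zinc finger genes go with the low values was not tested. By cluster, VCaP was densest from 57 to 59 Mb, with 27.5 per megabase, and C4-2 from 12 to 13 Mb, with 14 per megabase.

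V5 intervals showed no such uniform pattern over the zinc finger windows. The ratio of the density in them to that elsewhere was 0.644, 0.844, 0.931 and 1.08 in K185R cells with doxycycline and GSK2879552, GSK2879552, doxycycline and no treatment, and 0.854, 0.734, 1.19 and 0.969 in WT cells. Thus 6 of 8 V5 lists were lower in the zinc finger windows and 2 were higher, with a mean log2 ratio of -0.17. The mean of the densities themselves ran the other way, 7.20 per megabase in zinc finger windows and 6.85 elsewhere, because the longest V5 list was among those that were higher. A two-sided exact sign-flip test over the 8 lists gave p = 0.156 (Benjamini-Hochberg adjusted p = 0.234 over 6 tests), so no difference was called. With −log10 q of at least 5 the mean log2 ratio was -0.73 (exact p = 0.0078, the smallest this test can give), but it was 0.05 (exact p = 0.703) once the window from 27 to 28 Mb was also left out of the rest. In band 19p12 the V5 ratio ranged from 0, with no interval in WT cells with GSK2879552, to 1.21 in WT cells with doxycycline. The lists with few V5 intervals had the low values there and the longest lists the high ones: K185R without treatment had 66 and WT with doxycycline 92, while K185R and WT with both agents had 2 each.

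**Figure D3:**
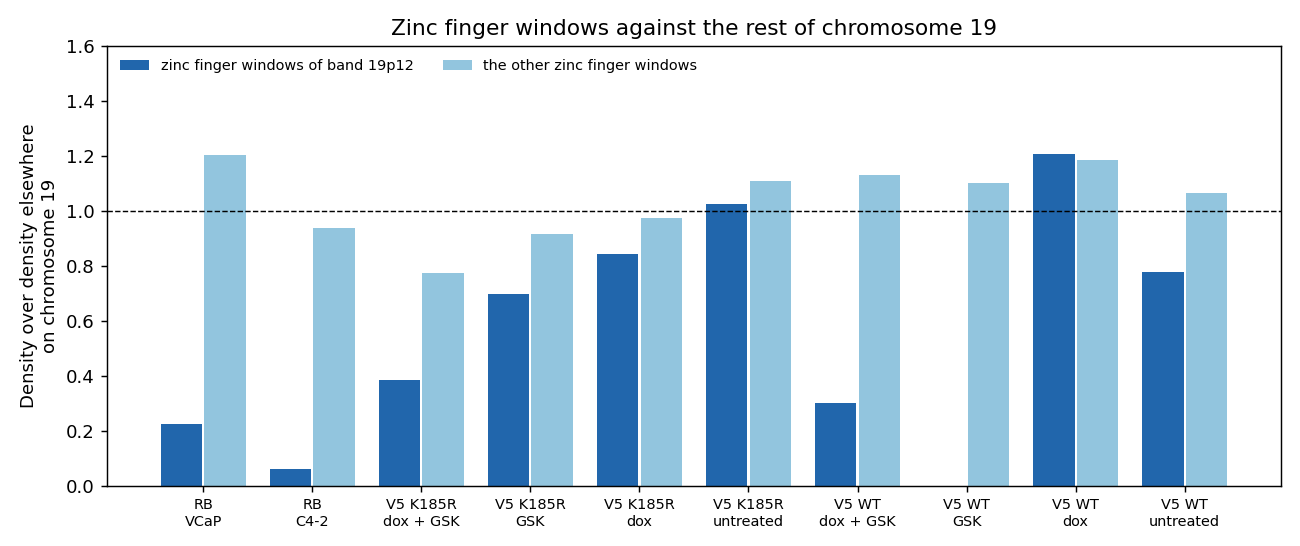
Density of intervals in the zinc finger windows divided by the density elsewhere on chromosome 19, for windows of band 19p12 (dark) and for the other zinc finger windows (light), in each list. The dashed line marks equal density. In band 19p12 the RB bars stand at 0.224 in VCaP and 0.0596 in C4-2, and the V5 bars range from 0 to 1.21.

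Promoters of zinc finger genes were also searched for short motifs, as sequence context that was not joined to the intervals. RefSeq promoters (GRCh38.p14, 250 bases before to 50 after each start) were taken by gene symbol, and a gene may have several entries. The E2F motif was any of TTTCCCGC, TTTGGCGC, TTTCGCGC and TTTGCCGC on either strand. It occurred in 24 of 285 zinc finger entries of chromosome 19 (8.42%), 75 of 1632 other entries of that chromosome (4.60%), 3.21% of entries on other chromosomes and 3.31% of all. The ETS motif CCGGAAGT occurred in 17.5%, 4.35%, 4.01% and 4.14% of the same sets, again on either strand. CCAAT was in 50.2%, 34.8%, 34.5% and 34.6%. GGGCGG, the GC box, was in 64.9%, 61.2%, 43.98% and 45.0%, and TTTGAA, the cell cycle homology region, in 9.47%, 7.41%, 15.6% and 15.2%. A list of 13 E2F-regulated or cell cycle genes of chromosome 19 had 18 entries, of which 5 held an E2F motif. They belong to UHRF1, which keeps up DNA methylation at replication, DNMT1, the maintenance DNA methyltransferase, HAUS8, a subunit of the augmin complex of the spindle, and LIG1, the replicative DNA ligase. A match is a run of letters and not evidence of binding.

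RB sharing between the lines was close to that of other chromosomes when counted from VCaP and higher when counted from C4-2. Of the VCaP intervals, 273 of 975 (28.0%, 95% Wilson interval 25.3 to 30.9, counting error over intervals only) overlapped a C4-2 interval by at least 1 base, against 30.3% on other chromosomes and 30.2% of the whole list. Of the C4-2 intervals, 294 of 434 (67.7%, 63.2 to 72.0) overlapped a VCaP interval, against 58.8% (57.8 to 59.9) on other chromosomes and 59.3% of the whole list. The Wilson intervals of the C4-2 shares do not overlap, but without replicate lists the difference was not tested. In the window from 27 to 28 Mb, 5 of the 27 C4-2 intervals (18.5%) were shared. Without it the share was 71.0%.

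Strong VCaP intervals were shared more often than weak ones, and the C4-2 classes differed less. By −log10 q, in 4 equal classes from the weakest to the strongest, 12.7%, 18.03%, 31.3% and 50.0% of VCaP intervals were shared. For C4-2 the classes gave 57.8%, 67.6%, 75.0% and 70.6%. The median fold enrichment, the authors' ratio of reads at the summit to local background, was 6.77 in shared and 5.57 in unshared VCaP intervals, and 5.92 and 5.39 in C4-2. In zinc finger windows 51 of 65 C4-2 intervals (78.5%, 67.0 to 86.7) were shared, and elsewhere 65.9% (60.9 to 70.5), and these Wilson intervals overlap. On the short arm 34.5% of VCaP and 63.2% of C4-2 intervals were shared, and on the long arm 24.1% and 72.1%.

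The strongest shared RB intervals had high fold enrichment in both lines. At chr19:16221983-16222401 the fold was 17.9 in VCaP (88 reads) and 16.1 in C4-2 (57 reads), and no V5 list had an interval. At chr19:10305002-10305721 it was 13.4 in VCaP and 14.5 in C4-2, with a V5 interval in WT cells with GSK2879552 (10.2) and without treatment (6.67). At chr19:14016797-14017014 it was 14.9 and 14.3. This RB interval met V5 in 3 WT lists, with both agents (12.5), GSK2879552 (8.64) and no treatment (8.79), and in no K185R list. Those at chr19:56014883-56015314 (17.5 in VCaP and 14.9 in C4-2) and chr19:49891332-49891660 (17.8 and 13.7) met V5 in no list. The interval at chr19:5978192-5978495 was weaker in VCaP, 6.78, than in C4-2, 12.9. The 6 were the C4-2 intervals of highest −log10 q, taken only where local background was under 10 times the floor, and 5 shared intervals were passed over for it.

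Intervals of a single line were weaker at the median than shared ones, and the 4 of highest −log10 q in each line had folds of 8.29 to 16.8. Of those in VCaP alone, chr19:42772886-42773441 had a fold of 12.05 (48 reads), chr19:10828206-10828760 13.2 (35 reads), chr19:39340533-39341193 8.29 (53 reads) and chr19:14228571-14228907 13.4 (31 reads). None of these met a V5 interval. Of those in C4-2 alone, chr19:591599-591887 had a fold of 14.9, chr19:13122755-13123095 11.8 and chr19:16985951-16986097 12.4, and the last met weak V5 intervals in untreated K185R cells (4.71, 5 reads) and in WT cells with doxycycline (5.33, 6 reads). The strongest was chr19:27789593-27789756 in the window next to the centromere, with a fold of 16.8 and 55 reads. It met a V5 interval in all 8 lists, with folds of 11.7, 11.6, 14.6 and 15.8 in K185R cells and 11.0, 6.66, 15.0 and 14.5 in WT cells, in the order of treatments used above. The V5 folds of both proteins overlap there.

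A smaller share of C4-2 RB intervals met V5 on chromosome 19 than on the other chromosomes in every list. The share of V5 intervals that met RB, given below, was higher on chromosome 19 in 7 of 8 lists. Of the 434 C4-2 RB intervals, V5 intervals of K185R cells overlapped 11 with doxycycline and GSK2879552 (2.53%, against 6.07% of all RB intervals), 17 with GSK2879552 (3.92%, against 9%), 17 with doxycycline (3.92%, against 8.53%) and 23 without treatment (5.30%, against 11.4%). Those of WT cells overlapped 38 (8.76%, against 13.9%), 25 (5.76%, against 12.5%), 23 (5.30%, against 11.8%) and 30 (6.91%, against 14.1%). The mean was 5.30% ± 1.94 on chromosome 19 and 11.2% ± 2.86 on other chromosomes (SD over 8 lists), a difference of -5.89 percentage points, lower in 8 of 8 lists. The two-sided exact sign-flip test gave p = 0.0078, the smallest it can give (adjusted p = 0.0469). All 8 differences use the same C4-2 RB list, so they are not independent of each other. The test also does not measure how far single chromosomes differ from the rest. The difference was -2.53 points when intervals of high local background were left out. It was -8.43 when the window from 27 to 28 Mb was left out of chromosome 19, with nothing left out of the other chromosomes, so these sides are not alike. With the VCaP RB intervals in place of those of C4-2 it was -1.23 points.

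**Figure D4:**
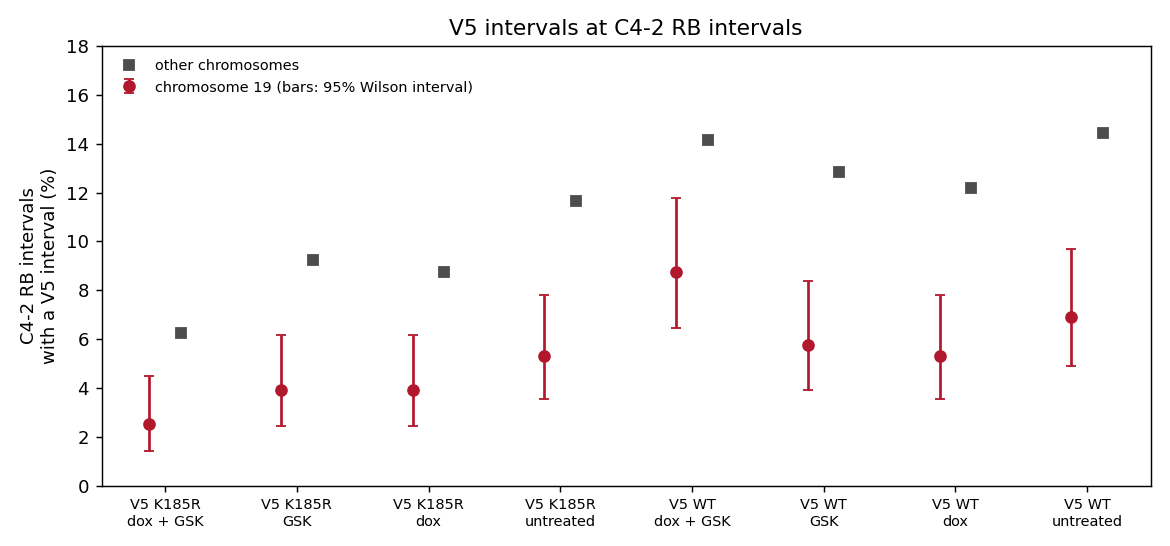
Share of C4-2 RB intervals that overlap a V5 interval, on chromosome 19 (red, with 95% Wilson intervals for counting error) and on the other chromosomes (grey squares), for each V5 list. All 8 red points lie below their squares, from 2.53% to 8.76%.

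Set by protein, the K185R lists met fewer RB intervals of chromosome 19 than the WT lists, a difference that did not pass the test. The share was 3.92% ± 1.13 in K185R and 6.68% ± 1.54 in WT (SD over 4 lists each), lower in K185R under 4 of 4 treatments. The difference of -2.76 percentage points had a two-sided exact permutation p of 0.0571 over 70 splits, where the smallest possible p is 0.0286 (adjusted p = 0.171). Matched by treatment, the exact p was 0.125, the smallest possible with 4 pairs. The 4 lists of a protein differ in treatment and are not replicates. Without intervals of high local background the share was 2.24% in K185R and 5.18% in WT, and the difference was -2.94 points (exact permutation p = 0.0286). With the VCaP RB intervals it was -1.69 points (exact permutation p = 0.0286). The p-values of these alternatives were not adjusted. A lower K185R share was not particular to chromosome 19. On the other chromosomes V5 met 8.98% ± 2.22 of C4-2 RB intervals in K185R and 13.4% ± 1.07 in WT, a difference not tested.

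The overlap by protein was then divided between the window next to the centromere, from 27 to 28 Mb, and the rest of the chromosome. The rest includes 7 C4-2 RB intervals from 24 to 25 Mb, which border the interval-free stretch on its short-arm side. Inside the window, V5 met 10, 13, 14 and 14 of the 27 RB intervals in K185R cells with both agents, GSK2879552, doxycycline and no treatment, and 10, 8, 14 and 11 in WT cells. Outside it, V5 met 1, 4, 3 and 9 of 407 RB intervals in K185R cells and 28, 17, 9 and 19 in WT cells. These are 0.246%, 0.983%, 0.737% and 2.21% in K185R, against 6.88%, 4.18%, 2.21% and 4.67% in WT. The numbers were similar between the proteins inside the window, and outside it each WT list was higher than the K185R list of the same treatment. Across treatments the groups touch, since untreated K185R and WT with doxycycline both had 9. The difference outside the window was -3.44 percentage points (exact permutation p = 0.0571), and whether it differs from that inside was not tested.

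**Figure D5:**
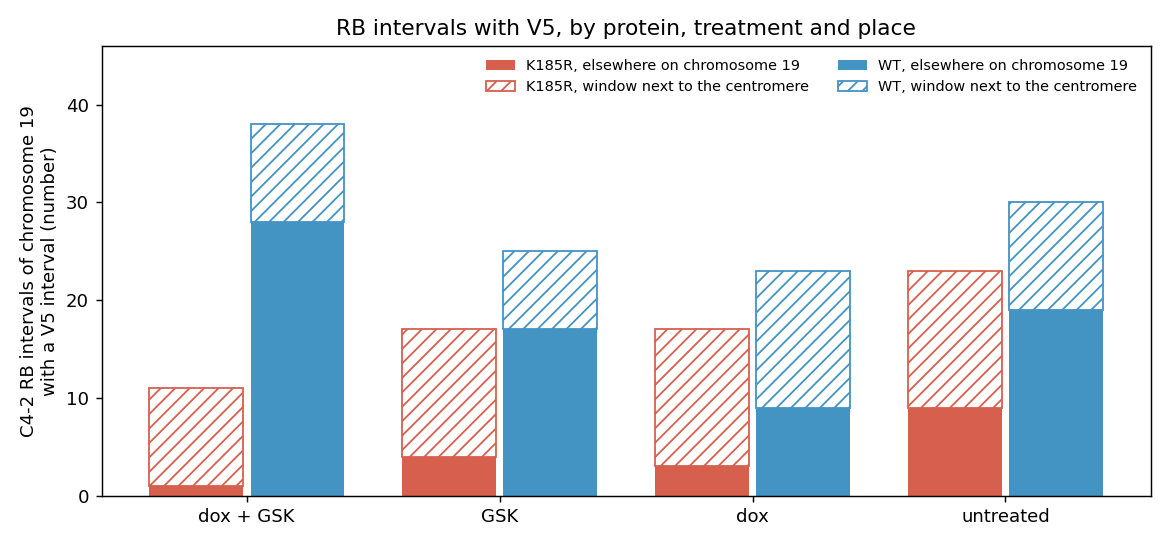
Number of C4-2 RB intervals of chromosome 19 that overlap a V5 interval, by treatment, in K185R (red) and WT (blue) cells, divided into those elsewhere on the chromosome (filled) and those in the window next to the centromere (hatched). The hatched parts are 10 to 14 in K185R and 8 to 14 in WT, while the filled parts are 1 to 9 in K185R and 9 to 28 in WT.

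Outside that window, 50 of the 407 RB intervals met a V5 interval in some list. Of these, 35 met WT lists alone, 5 K185R lists alone and 10 both. With doxycycline and GSK2879552, 28 RB intervals had V5 in WT alone, 1 in K185R alone and none in both. With GSK2879552 these counts were 14, 1 and 3, with doxycycline 8, 2 and 1, and without treatment 16, 6 and 3. The higher WT counts are not particular to chromosome 19. On the other chromosomes, single K185R lists met 6.24% to 11.7% of C4-2 RB intervals and single WT lists 12.2% to 14.4%. The split into WT alone, K185R alone and both is not given there. On chromosome 19 outside the window, some V5 list met 12.1% of the 289 RB intervals shared with VCaP and 12.7% of the 118 found in C4-2 alone. By list, V5 met 0, 3, 0 and 3 of the shared intervals in K185R cells and 22, 14, 4 and 13 in WT cells. Of those in C4-2 alone, V5 met 1, 1, 3 and 6 in K185R cells and 6, 3, 5 and 6 in WT cells. The strongest RB intervals met V5 most often in both proteins. In 4 classes of C4-2 RB from the weakest to the strongest by −log10 q, 0.935%, 2.83%, 1.94% and 9.89% met V5 in some K185R list, and 3.74%, 10.4%, 11.7% and 19.8% in some WT list.

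Treatment with GSK2879552 or doxycycline gave no called difference in these shares. With GSK2879552 the share was 5.24% ± 2.69 and without it 5.36% ± 1.22 (SD over 4 lists each), which differ by -0.115 percentage points (exact permutation p = 1.0, adjusted p = 1.0). With doxycycline it was 5.13% ± 2.67 and without it 5.47% ± 1.24, which differ by -0.346 points (exact permutation p = 0.943, adjusted p = 1.0). In both comparisons 3 of 4 matched pairs were lower with the agent and 1 was higher. The sign of each difference turned under several alternatives, so neither direction is given as a result.

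Seen from the V5 side, the share of V5 intervals at a C4-2 RB interval was lowest in the longest lists. On chromosome 19 it was 16.4%, 10.3%, 4.0% and 2.51% in K185R cells with both agents, GSK2879552, doxycycline and no treatment, and 40.0%, 36.4%, 1.98% and 10.8% in WT cells. Over all chromosomes the same lists had 14.5%, 7.79%, 3.26% and 1.76% in K185R, and 31.2%, 38.7%, 1.57% and 8.17% in WT. Chromosome 19 was above the other chromosomes in 7 of 8 lists, with means of 15.3% on chromosome 19 and 13.3% on the others, and the difference of 1.97 points was not called (exact sign-flip p = 0.0859, adjusted p = 0.172). With the window from 27 to 28 Mb left out of chromosome 19, and nothing left out of the others, the difference was -4.03 points (exact p = 0.0625), which compares unlike sides. On chromosome 19 without the window the shares were 1.79%, 2.14%, 0.733% and 1.002% in K185R cells and 33.3%, 27.6%, 0.730% and 7.09% in WT cells. The high WT shares with GSK2879552, with or without doxycycline, thus remained without the window, while the K185R shares with the same agents were 1.79% and 2.14%.

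The strongest V5 intervals at RB in 1 protein and not the other under the same treatment were taken as examples. They were picked for that difference and are a description only. Of the RB intervals with V5 in WT and not in K185R cells under the same treatment, chr19:14016782-14017074 had the strongest V5 interval with both agents, with a fold of 12.5 and 22 reads. The V5 interval at chr19:39926621-39926846 had folds of 12.04 with both agents (20 reads), 10.5 with GSK2879552 (15 reads) and 9.05 without treatment (13 reads) in WT cells, over RB folds of 7.71 in VCaP and 6.69 in C4-2. At chr19:30302449-30302862 all 4 WT lists had a V5 interval, with folds of 6.52, 7.11, 10.2 and 4.82, and no K185R list did. In the other direction, the RB interval under chr19:27750116-27750337, in the window next to the centromere, met 3 K185R lists and no WT list, with folds of 5.10 with GSK2879552 (13 reads), 5.50 with doxycycline (13 reads) and 6.30 without treatment (19 reads). The one RB interval outside the window with V5 in K185R and not in WT cells under both agents, chr19:36066477-36066797, had a K185R fold of 4.81 from 5 reads. It met V5 in K185R cells with doxycycline (5.37) and without treatment (6.52), and in WT cells with GSK2879552 (6.67) and with doxycycline (5.33). Its K185R intervals had 5, 6 and 8 reads with both agents, doxycycline and no treatment.

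RB intervals met by many V5 lists were mostly in the window next to the centromere. All 8 lists met 8 RB intervals and 7 lists met 2, and all 10 lay there. Of these 10, 7 had a local background of at least 10 times the floor in the C4-2 RB list. They were passed over, and the intervals named here are below that limit. The interval at chr19:27821679-27821832 had V5 folds of 6.29 to 9.66 in K185R and 4.91 to 12.1 in WT cells, and chr19:27890165-27890272 had 8.24 to 9.07 in 4 K185R lists and 7.34 to 9.28 in 3 WT lists. A further interval in the window, chr19:27778867-27779005, met 5 V5 lists. Outside it no RB interval met more than 5 V5 lists. One that met 5 was chr19:39138202-39138474, with RB folds of 11.7 in VCaP and 9.09 in C4-2, and V5 folds of 4.75 in untreated K185R cells, and of 7.97, 8.85, 4.77 and 6.02 in WT cells with both agents, GSK2879552, doxycycline and no treatment. Those at chr19:24599989-24600112 and chr19:3094208-3094376 met 4 lists each. The first of them lies beside the interval-free stretch, on its short-arm side.

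Some V5 intervals lay away from any RB interval and were common to both proteins. The region near chr19:39047643-39047870, in neither RB list, had V5 folds of 7.90, 9.39, 9.69 and 10.2 in K185R cells with both agents, GSK2879552, doxycycline and no treatment, and 6.68, 6.95, 12.5 and 7.97 in WT cells. It was the only region outside the window next to the centromere found in all 8 V5 lists, and the values of the proteins overlap. The interval at chr19:44157575-44157750, in a zinc finger window, was in 7 lists, with folds of 6.08 to 10.8 in K185R cells and 8.15 to 9.44 in WT cells. Fewer lists held chr19:59118762-59118965, at the end of the long arm (6 lists, with folds of 4.21 to 9.64), chr19:479562-479777 (4 lists, 4.52 to 11.4) and chr19:53696543-53696740 (both agents and no treatment in WT cells, 7.45 and 4.93). Most V5 regions were in a single list. Under the same treatment, the lists of the K185R and WT proteins overlapped in 23.9%, 21.2%, 21.4% and 19.8% of the shorter list with both agents, GSK2879552, doxycycline and no treatment. Without the window next to the centromere these shares were 8.93%, 10.3%, 18.8% and 15.7%. Pairs of the same protein ranged from 20.2% (doxycycline and no treatment in K185R cells) to 43.3% (both agents and doxycycline in K185R cells, 32.1% without the window). In WT cells GSK2879552 and no treatment shared 36.4% of the shorter list (27.6% without the window). These overlaps between V5 lists are of chromosome 19 only, and the matching shares over all chromosomes are not given.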

How the data were processed

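From 19 libraries the authors deposited 10 interval lists, 1 for each group. MACS2 2.1.0, SAMtools 1.2, BWA 0.7.9a, FastQC 0.11.9 and build hg19 are named in the submitters' processing notes. Other settings and any control library are not given in these sources. Each deposited interval has a fold (a ratio of summit reads to local background), a summit position, and the −log10 of its p-value and of its q-value, all of them the authors' values for single intervals. Reads and local background at the summit were solved from fold and −log10 p, with 1 read added to both terms as in MACS2, and the p recomputed from them was within 0.000163 of the authors' on the −log10 scale. The floor is the lowest background that 5 or more intervals have in common. Depth is the floor per fragment length.

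Intervals with column 1 equal to chr19 were taken from each list. Intervals were shared when they overlapped by at least 1 base. Intervals are not replicates: Wilson intervals (95%) cover counting error only. PCR reads are not independent molecules. V5 lists were compared by exact permutation over 70 splits or exact sign flips, with Benjamini-Hochberg adjustment over 6 tests and a threshold of 0.05. The unit is the list. p-values measure the spread between lists of different treatment. Alternatives were −log10 q of at least 5, no high background (at least 10 times the floor), 50% overlap of both intervals, summits within 100 bases, covered bases, VCaP RB and leaving out lists; others were added after seeing the data. The overlap code was tested on simulated intervals. The code for reads and background was tested by solving again from values that it had solved in the deposited lists. Python 3.11.15, numpy 2.4.6, pandas 2.3.3 and scipy 1.17.1 were used. The chromosome, lists and windows were chosen with earlier results of these data known. Named intervals were those of highest −log10 q by class, or in most V5 lists, with local background under 10 times the floor. Genes of the fixed lists could not be placed on the intervals, and zinc finger windows replaced annotated clusters (at least 5 genes, gaps of 200 kb or less).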

Additional observations from a re-analysis of the deposited data

Results flagged for a closer look

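Doxycycline went with opposite shifts in K185R and WT lists for the number of chromosome 19 intervals and for the zinc finger ratio. For the ratio of chromosome 19 to other density, the WT lists hardly moved. The difference between the proteins was not tested. The number of chromosome 19 intervals with doxycycline, divided by that without, was 0.432 with GSK2879552 and 0.463 without it in K185R cells, and 1.36 and 4.15 in WT cells. The ratio of chromosome 19 to other density changed by a factor of 1.23 and 1.16 in K185R cells, and by 0.987 and 0.979 in WT cells, which is close to no change. With −log10 q of at least 5 that ratio was 1.58 with doxycycline and 1.50 without it in WT cells with GSK2879552, so the opposite direction did not hold there. The ratio of zinc finger to other windows changed by 0.762 and 0.861 in K185R cells, and by 1.16 and 1.23 in WT cells. Each factor compares 2 lists, list length differs between them, and its part in these shifts was not tested.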

How the results depend on the processing

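Of 107 alternatives, 75 kept the direction and the side of the threshold or, for sharing and density, which have no test, stayed within counting error or the spread between lists. No paired analysis was possible because each list pools the libraries of its group, so replicate numbers could not be a block; lists were matched only by treatment or by chromosome. K185R against WT had an unadjusted exact permutation p of 0.0286, the smallest possible, without high local background (-2.94 points) and with VCaP RB (-1.69). The difference lay between -3.23 and -2.07 when lists were left out in turn. GSK2879552 turned positive with −log10 q of at least 5 (0.104), without high background (0.118), with VCaP RB (0.564), without the window next to the centromere (0.614) and with 66 V5 intervals per list (1.38), and ranged from -1.29 to 0.787 with a list left out. Doxycycline turned positive with −log10 q of at least 5 (0.104), and ranged from -1.56 to 0.518. The share of V5 intervals at RB, chromosome 19 against others, passed the threshold without adjustment at 50% overlap (3.12) and with VCaP RB (4.86). With a list left out the difference ranged from 0.961 to 2.59 (past the threshold, unadjusted, without WT with GSK2879552). It reversed with −log10 q of at least 5 (-4.73) and with the window left out of chromosome 19 alone (-4.03). The share of RB with V5, chromosome 19 against others, ranged from -6.20 to -5.66 points with a list left out and from -8.43 to -1.23 under the other alternatives, below 0 in all of them. The zinc finger log2 ratio was -0.73 with −log10 q of at least 5, 0.0509 when the window was also left out, 0.033 without band 19p12, and -0.23 to -0.10 with a list left out. The causes were not tested. Sharing was 24.1% of VCaP and 63.1% of C4-2 with −log10 q of at least 5, 9.33% and 20.97% with 50% overlap, and 19.9% and 44.7% by summits. Density ratios moved to 3.67 (VCaP), 2.30 (C4-2) and 1.198 (V5 median) with −log10 q of at least 5, and to 3.33 by covered bases in VCaP. Gaps of 100 kb and at least 10 genes per cluster were not run, since no annotation of the build was used; band 19p12 alone gave no value, since 1 list had no interval there. V5 medians of 5 to 7 reads limit the detection of weak sites.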
